A study of Rattus norvegicus with 18 samples.

Results

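Serotonin receptors were followed across 3 brain regions of female rats, with and without estradiol benzoate. The genes were Htr1a, Htr1b, Htr1d, Htr2a, Htr2c, Htr3a, Htr4, Htr5b, Htr6 and Htr7, chosen by name as 10 of the 14 serotonin receptor genes that carry a symbol on the array. Each had 1 probe set among the 23188 for genes, so choosing the brightest probe set per gene left nothing out. All samples came from adult Sprague-Dawley rats, 90 days old, that were ovariectomized (OVX) and left for a week before treatment. EB rats received 10 µg of EB in 0.1 mL of oil under the skin on day 1 and again on day 2, and Oil rats received 0.1 mL of oil alone. The labels call the agent 17β-estradiol and abbreviate it EB, which the study spells out as estradiol benzoate. Tissue was punched from both sides of frozen brain on day 4, 48 hours after the last injection. The regions were the hindbrain nucleus of the solitary tract (NTS) and the paraventricular (PVN) and arcuate (ARC) nuclei of the hypothalamus, with 3 EB and 3 Oil arrays in each, 18 arrays in all. An array such as NTS EB 3 carries the replicate number of its source label, and the labels do not say which punches came from 1 rat, so the region tests treat arrays that can share a rat as separate samples. OVX removes the ovarian source of estrogen in a single step, and a punch takes every cell type inside it.

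Serotonin is made by a small set of raphe neurons in the brainstem whose fibres reach nearly every part of the brain. Its receptors are G protein-coupled apart from 5-HT3, which is an ion channel. The 5-HT1 group couples to inhibitory G proteins, the 5-HT2 group to Gq and calcium release, and 5-HT4, 5-HT6 and 5-HT7 to cyclic AMP production. In feeding circuits, the 5-HT2C receptor on arcuate pro-opiomelanocortin neurons and the 5-HT1B receptor on neighbouring AgRP neurons are known to reduce food intake when activated. In the NTS, 5-HT3 receptors take part in the relay of vagal signals from the gut.

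Signals are given on the log2 scale, where a difference of 1 is a fold of 2. The background level of an array was taken as the median of its 23 background probe sets, which lay between 6.74 and 7.60. Those probe sets themselves ran from 3.50 to 9.02, so a signal near the median is not clearly above or below background. Htr1b, Htr2a, Htr2c, Htr3a and Htr4 were above it on all 18 arrays. Htr1a was above it on 12 arrays and Htr7 on 3, while Htr1d, Htr5b and Htr6 were above it on none. Levels of different genes were not set against each other, because each probe set has its own brightness.

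**Figure D1:**
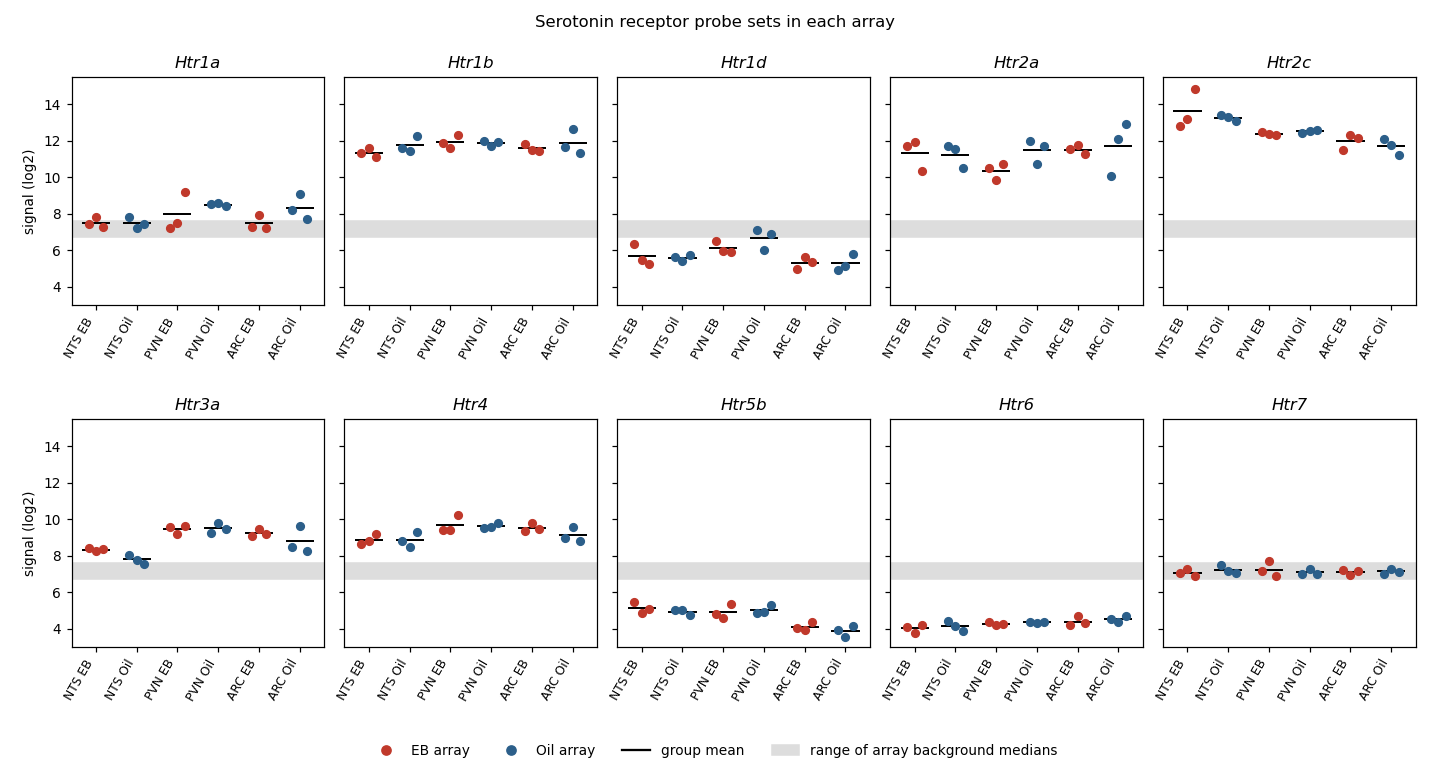
Signal (log2, y axis) of each of the 10 serotonin receptor genes in every array, grouped by region and treatment along the x axis; red points are EB arrays, blue points Oil arrays, black bars group means, and the grey band the range of the array background medians, 6.74 to 7.60. Htr2c in NTS EB 3 stands at 14.86, above every other array, and Htr1d, Htr5b and Htr6 lie below their arrays' background medians throughout.

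The tissues carried the markers of their labels unevenly. All 7 measured Hox genes of the hindbrain were higher in NTS than in PVN and in ARC punches. A list of 15 choroid plexus genes averaged 13.29 in NTS EB 3, 11.10 in NTS Oil 1, 11.08 in NTS Oil 2 and 7.82 in NTS Oil 3, against 6.62 to 7.20 in all other arrays. NTS Oil 3 had the lowest mean of 10 dorsal vagal neuron genes among the NTS arrays, 6.74 against 8.93 to 9.94. A list of 13 midbrain dopamine and mammillary genes averaged 10.12 and 10.11 in PVN Oil 1 and PVN Oil 3, against 8.03 to 8.37 in the other PVN arrays. Among ARC arrays this list was highest in EB 2 (10.80) and EB 3 (9.96) and lay from 8.66 to 9.23 in the rest, and ARC EB 2 had the lowest arcuate neuron mean, 8.55 against 9.16 to 10.66. ARC Oil 1 averaged 9.72 over 9 paraventricular neuron genes, against 7.72 to 8.09 in the other ARC arrays. The arrays named below as those that stood apart are ARC Oil 1, PVN Oil 1, PVN Oil 3 and NTS Oil 3, all of them Oil arrays. NTS EB 3 and ARC EB 2 were not in that set, and leaving the set out keeps 1 PVN Oil array, PVN Oil 2. That array had the lowest mean of 9 endothelial and mural cell genes among PVN arrays, 7.78 against 9.36 to 10.12. In the study's heatmap of changed PVN genes, PVN Oil 2 was the Oil array that fell apart from the other 2. In such bulk punches, fewer cells of a type and less RNA per cell cannot be told apart.

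Regions were compared first, as the mean of EB and Oil arrays in each, to give the level of every receptor by tissue. Among the receptors above background, Htr3a was lower in NTS than in PVN, and Htr2c was higher in NTS than in ARC. Under a fold of 2, Htr3a in NTS minus ARC and Htr2c and Htr4 in NTS minus PVN passed the adjusted p alone. A gene was called between regions at a Benjamini-Hochberg adjusted p under 0.05 over all 23188 genes (limma, all 18 arrays) and a fold of 2 or more. Between NTS and PVN 1 of the 10 receptors was called, lower in NTS, where 5.55% of all genes were called and 2.6% were called lower. Between NTS and ARC 2 were called, Htr2c and Htr5b, both higher in NTS, where 7.13% of all genes were called and 2.98% were called higher. Between PVN and ARC 1 was called, Htr1d, higher in PVN, where 2.23% of all genes were called and 0.349% were called higher. Of these called receptors, Htr5b and Htr1d were under background on all 18 arrays. By adjusted p alone, 4, 4 and 2 receptors passed in NTS minus PVN, NTS minus ARC and PVN minus ARC, where 37.5%, 44.3% and 21.4% of all genes passed. The arrays of both regions did not overlap for 17.7% of all genes in NTS minus PVN, 20.3% in NTS minus ARC and 8.79% in PVN minus ARC. The median difference over the 10 receptors was -0.29 for NTS minus PVN, -0.25 for NTS minus ARC and 0.33 for PVN minus ARC, beside 0.00, -0.06 and -0.05 over all genes.

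**Figure D2:**
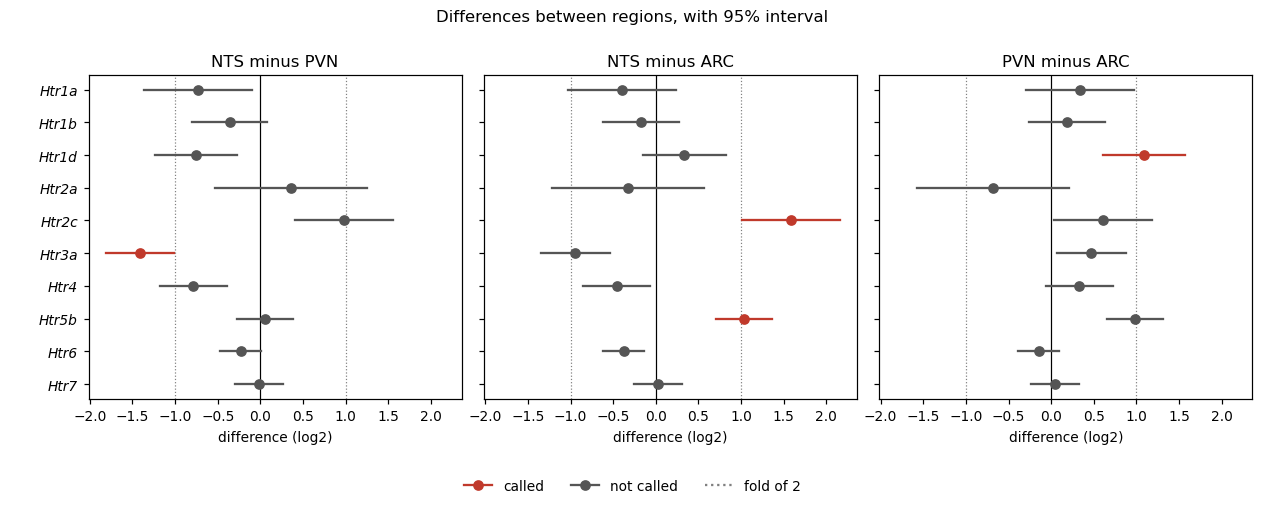
Difference between regions (log2, x axis) for each of the 10 receptor genes (rows), with its 95% interval, in NTS minus PVN, NTS minus ARC and PVN minus ARC; red marks called genes and dotted lines a fold of 2. Htr3a lies at -1.41 in NTS minus PVN, Htr2c at 1.59 in NTS minus ARC and Htr1d at 1.09 in PVN minus ARC.

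Htr2c encodes the Gq-coupled 5-HT2C receptor. Its signal was 12.82, 13.19 and 14.86 in NTS EB arrays and 13.39, 13.28 and 13.07 in NTS Oil arrays. It was 12.46, 12.36 and 12.34 in PVN EB arrays and 12.41, 12.55 and 12.60 in PVN Oil arrays. It was 11.49, 12.33 and 12.18 in ARC EB arrays and 12.10, 11.79 and 11.21 in ARC Oil arrays. The 3 regions did not overlap, in the order NTS, PVN, ARC from high to low. Htr2c averaged 13.43 ± 0.73 in NTS and 11.85 ± 0.44 in ARC (SD, n = 6 each), a difference of 1.59 (SE 0.27) and a fold of 3.00, with a limma adjusted p of 0.000282. NTS minus PVN was 0.98 (SE 0.27, limma adjusted p = 0.0100), just under a fold of 2, and PVN minus ARC was 0.61 with a limma adjusted p of 0.123, so the last step of that order did not pass the test.

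Choroid plexus is known to express Htr2c strongly, and the array with the highest Htr2c signal, NTS EB 3, also had the highest choroid plexus mean. The defining choroid plexus gene Ttr, a thyroid hormone carrier, ran from 8.49 to 17.91 in NTS arrays, from 7.57 to 8.37 in PVN arrays and from 7.35 to 9.96 in ARC arrays. In NTS minus ARC, 8 of the 15 choroid plexus genes were called, all higher in NTS, where 2.98% of all genes were called higher. In NTS EB 1 and NTS EB 2, whose choroid plexus means were 6.77 and 6.92, Htr2c was 12.82 and 13.19, and the highest PVN or ARC array was at 12.60. Ttr was 8.49 in NTS EB 1 and 11.45 in NTS EB 2, and the latter lay above every PVN and ARC array. Without the 4 NTS arrays with the higher choroid plexus means, an alternative chosen after the data were seen, NTS EB 1 and NTS EB 2 remained, so region and treatment cannot be told apart in it. There NTS minus ARC was 1.16 (limma adjusted p = 0.00236) and NTS minus PVN was 0.55 (limma adjusted p = 0.108). The part of choroid plexus tissue in the NTS minus PVN difference was not otherwise tested. NTS minus PVN was 0.67 without NTS EB 3, and it passed a fold of 2 without NTS EB 1 (1.18), NTS EB 2 (1.09), NTS Oil 3 (1.03), PVN EB 1 (1.00) or PVN Oil 3 (1.00). Its limma adjusted p was 0.0948 with EB arrays alone. It was not called without the arrays that stood apart, a setting that keeps NTS EB 3 and leaves 1 PVN Oil array.

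Estradiol acts through receptors that can bind DNA directly, so the stretch before each gene start was searched for their element. The 250 bases before the gene start were taken from RefSeq (GRCr8) for 6 of the 10 receptors, namely Htr1b, Htr1d, Htr2c, Htr5b, Htr6 and Htr7. The full estrogen response element GGTCANNNTGACC was in 0 of these 6 and in 0.0239% of all 33469 such stretches. Its half-site, GGTCA or TGACC, was likewise in 0 of 6 and in 35.4% of all stretches, and the cyclic AMP response element TGACGTCA was in 0 of 6 and in 1.59% of all. Every motif was read on both strands, and the half-site is contained in the full element. The stretch before Htr2c is shown because it belongs to the receptor with the highest regional difference above background. It lies at chrX:115452940-115453189 on the plus strand, holds 50.4% G and C, and has no capitals because none of the motifs was in it. These letters say nothing about where the estrogen receptor binds.
Htr2c, 250 bases upstream: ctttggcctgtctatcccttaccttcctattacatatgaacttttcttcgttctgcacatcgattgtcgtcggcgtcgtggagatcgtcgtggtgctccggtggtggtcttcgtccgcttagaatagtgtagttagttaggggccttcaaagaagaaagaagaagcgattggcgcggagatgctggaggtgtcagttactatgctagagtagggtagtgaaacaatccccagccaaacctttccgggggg

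**Figure D3:**
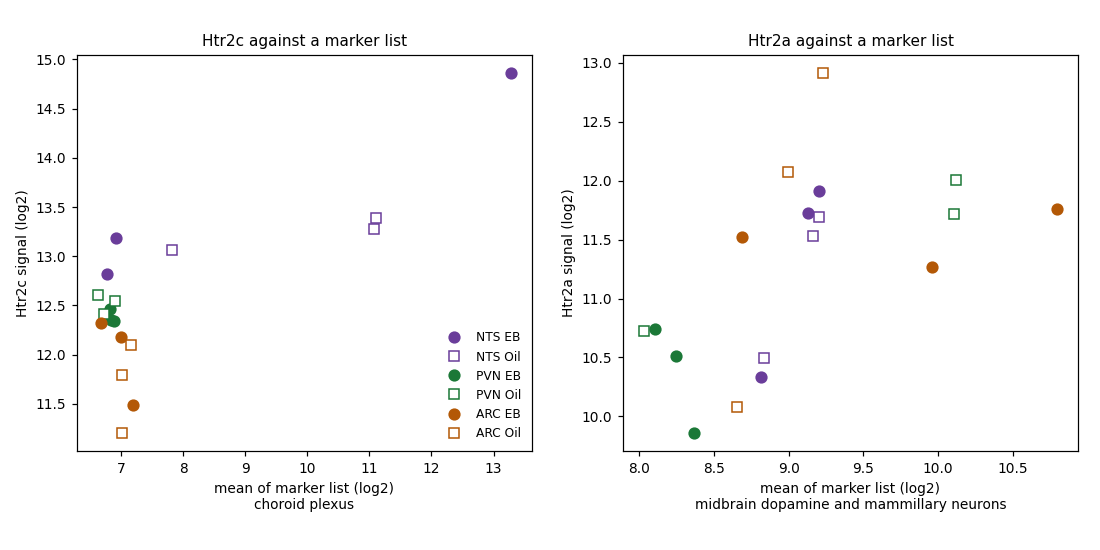
Left, Htr2c signal (log2, y axis) against the mean of 15 choroid plexus genes (log2, x axis); right, Htr2a signal (log2, y axis) against the mean of 13 midbrain dopamine and mammillary genes (log2, x axis), 1 point per array, filled circles for EB and open squares for Oil, coloured by region. NTS EB 3 has both the highest Htr2c signal, 14.86, and the highest choroid plexus mean, 13.29, and PVN Oil 1 and PVN Oil 3 lie above the other PVN arrays on both axes of the right panel.

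Htr3a encodes the channel-forming subunit without which 5-HT3 receptors do not assemble. Its signal was 8.40, 8.24 and 8.37 in NTS EB arrays and 8.05, 7.78 and 7.56 in NTS Oil arrays. It was 9.58, 9.17 and 9.61 in PVN EB arrays and 9.27, 9.78 and 9.48 in PVN Oil arrays. It was 9.07, 9.45 and 9.19 in ARC EB arrays and 8.45, 9.63 and 8.28 in ARC Oil arrays. Every NTS array was below every PVN array, while ARC Oil 3 (8.28) lay below NTS EB 1 and NTS EB 3. Htr3a averaged 8.07 ± 0.34 in NTS and 9.48 ± 0.23 in PVN (SD, n = 6 each), a difference of -1.41 (SE 0.19) and a 2.66-fold lower signal, with a limma adjusted p of 5.25e-05. The call held with EB arrays alone (-1.12) and with Oil arrays alone (-1.71). The call also held without the 4 choroid plexus arrays (-1.16), where 2 EB arrays alone stand for NTS. Without the arrays that stood apart, which leaves 1 PVN Oil array, the difference was -1.49.

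Against ARC, where Htr3a averaged 9.01 ± 0.54 (SD, n = 6), NTS was lower by 0.94 on the log2 scale (SE 0.19, limma adjusted p = 0.00103), under a fold of 2. This difference passed a fold of 2 without ARC Oil 1 (-1.03), ARC Oil 3 (-1.07) or NTS Oil 1 (-1.01). PVN minus ARC was 0.47 with a limma adjusted p of 0.0915. Htr3b, whose product joins Htr3a in mixed channels, was at or below 5.47 and under background on all 18 arrays.

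Htr4 encodes a receptor that raises cyclic AMP. Its signal ran from 8.47 to 9.32 (median 8.80) in NTS, from 9.40 to 10.24 (median 9.55) in PVN and from 8.81 to 9.81 (median 9.39) in ARC. NTS and PVN did not overlap, and ARC overlapped both. NTS minus PVN was -0.79 (SE 0.19, limma adjusted p = 0.00375), NTS minus ARC was -0.46 (limma adjusted p = 0.0574) and PVN minus ARC was 0.33 (limma adjusted p = 0.221). Without the arrays that stood apart in tissue markers, NTS minus ARC was -0.61 with a limma adjusted p of 0.0392.

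Htr1b, an inhibitory receptor that acts on nerve terminals, had overlapping ranges in all regions. They were 11.09 to 12.27 in NTS, 11.63 to 12.31 in PVN and 11.32 to 12.67 in ARC. Its largest regional difference was -0.36 for NTS minus PVN, with a 95% interval from -0.80 to 0.08 and a limma adjusted p of 0.190.

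Htr2a encodes the Gq-coupled 5-HT2A receptor. Its signal was 11.72, 11.92 and 10.34 in NTS EB arrays and 11.70, 11.53 and 10.5 in NTS Oil arrays. In PVN it was 10.51, 9.86 and 10.74 in EB arrays and 12.01, 10.72 and 11.71 in Oil arrays. In ARC it was 11.52, 11.76 and 11.27 in EB arrays and 10.08, 12.08 and 12.92 in Oil arrays. Regions overlapped throughout, and no regional difference had a limma adjusted p under 0.268. The 2 low NTS arrays, EB 3 and Oil 3, were also those with the lowest dorsal vagal neuron means, 8.93 and 6.74, and the low ARC array, Oil 1, was the one with high paraventricular neuron genes. Without ARC Oil 1, PVN minus ARC was -1.08 and called (limma adjusted p = 0.0342). Without all 4 arrays that stood apart it was -1.46, against -0.68 with all arrays. Those 4 include the 2 highest PVN arrays for Htr2a (12.01 and 11.71) and the lowest ARC array (10.08). Leaving them out therefore had to lower the difference, and it left 1 PVN Oil array. The part of punch placement in these values was not tested.

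Htr1a, the inhibitory receptor found on raphe and forebrain neurons, lay close to background. It ran from 7.2 to 7.84 in NTS, where 3 of 6 arrays were above background, from 7.21 to 9.21 in PVN, where 5 were, and from 7.22 to 9.08 in ARC, where 4 were. NTS minus PVN was -0.73 (SE 0.30), with a limma adjusted p of 0.0645. With Oil arrays alone it was -1.01 and called (limma adjusted p = 0.0485).

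The other 4 receptors gave signals at or under background. Htr7, which raises cyclic AMP, stayed between 6.86 and 7.69, and its regional differences lay between -0.02 and 0.04 on the log2 scale. The ID of its probe set marks it as not mapped to the genome. Htr6, also linked to cyclic AMP, stayed between 3.78 and 4.71, with overlapping regions and a limma adjusted p of 0.0144 for NTS minus ARC, under a fold of 2.

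Htr1d, an inhibitory receptor of nerve terminals, ran from 5.22 to 6.34 in NTS, from 5.93 to 7.13 in PVN and from 4.94 to 5.80 in ARC. PVN and ARC did not overlap (means 6.40 ± 0.51 and 5.30 ± 0.35, SD, n = 6 each), and the gene was called between them with a limma adjusted p of 0.00368. As both regions were under background on every array, the difference describes probe signal, and its size as RNA is not known. The call was lost without PVN Oil 1 (0.98). Without the arrays that stood apart, which leaves 1 PVN Oil array, the difference was 0.68. Htr1d was highest in PVN Oil 1 and PVN Oil 3, at 7.13 and 6.87, the 2 PVN arrays with high midbrain genes.

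Htr5b, whose protein is made in rodents and not in humans, ran from 4.73 to 5.44 in NTS, from 4.55 to 5.35 in PVN and from 3.52 to 4.34 in ARC. ARC was below both other regions on every array, with limma adjusted p-values of 9.57e-05 for NTS minus ARC and 0.000572 for PVN minus ARC. NTS minus ARC was the called difference, 1.04 with all arrays, and it fell under a fold of 2 without ARC EB 2 (0.99), ARC Oil 2 (0.95) or NTS EB 1 (0.96). PVN minus ARC, 0.98 with all arrays, reached a fold of 2 without any 1 of ARC EB 3 (1.04), ARC Oil 1 (1.00), ARC Oil 3 (1.05), PVN EB 1 (1.01), PVN EB 2 (1.07), PVN Oil 1 (1.02) or PVN Oil 2 (1.01). These are differences of probe signal under background, and their size as RNA is not known.

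EB was then compared with Oil within each region, which is the question the study asked of its arrays. Htr2a was lower in EB than in Oil punches of the PVN, and no other receptor was called in any region with all arrays. A gene was called at an unadjusted limma p of 0.05 or less and a fold of 2 or more, the rule of the study's methods. In the NTS 0 of 10 receptors were called, where 0.0776% of all genes were called. In the PVN 1 was called, where 0.332% of all genes were called and 0.181% were called lower, and in the ARC 0 were called, where 0.479% were. No receptor passed a limma adjusted p under 0.05 in any region, where 0.00431% of all genes did in NTS and none in PVN or ARC. At an unadjusted limma p of 0.05 or less there was 1 receptor in each region, where 4.65% of all genes passed in NTS, 6.39% in PVN and 5.66% in ARC. With 3 arrays against 3, an exact permutation test of a single gene could not go below p = 0.10.

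**Figure D4:**
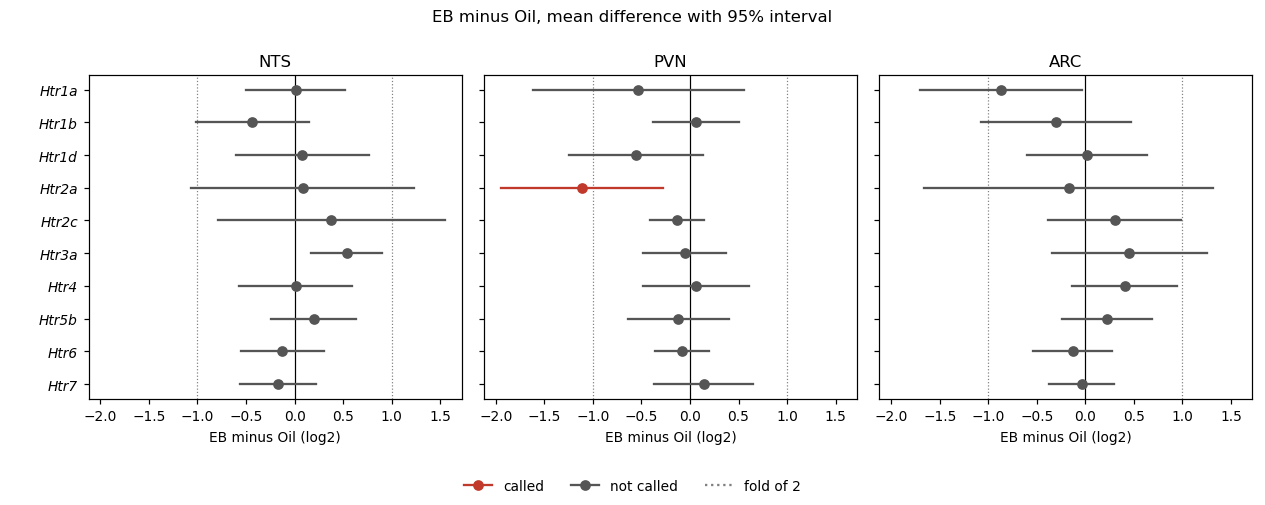
EB minus Oil (log2, x axis) for each of the 10 receptor genes (rows) in NTS, PVN and ARC, with its 95% interval from limma; red marks called genes and dotted lines a fold of 2. Htr2a in PVN, at -1.11, is the only called gene, and its interval runs from -1.95 to -0.28.

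In PVN, Htr2a averaged 10.37 ± 0.46 in EB and 11.48 ± 0.67 in Oil arrays (SD, n = 3 each). EB minus Oil was -1.11 (SE 0.36), a 2.16-fold lower signal, with an unadjusted p of 0.0156 and a limma adjusted p of 0.722. The groups overlapped, because PVN EB 3 (10.74) lay above PVN Oil 2 (10.72). The 2 high arrays, PVN Oil 1 and PVN Oil 3, were those with the raised midbrain list. In that list 4 of 13 genes were called lower with EB in PVN, where 0.181% of all genes were. Those 2 Oil arrays were named for their high mean of this list, so these calls restate that and are no separate test. The mean of 9 paraventricular neuron genes ran from 8.67 to 10.72 in PVN EB arrays and was 7.69 and 7.74 in those 2 arrays, with 9.35 in PVN Oil 2. Without those 2 arrays PVN Oil 2 was the 1 Oil array left, and EB minus Oil was -0.35. The call was also lost without PVN EB 2 (-0.86), PVN Oil 1 (-0.85) or PVN Oil 3 (-0.996) alone, and in a fit of all 18 arrays (unadjusted p = 0.0796). It held without PVN EB 1, PVN EB 3 or PVN Oil 2, and the difference was largest without PVN Oil 2 (-1.49).

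In NTS, Htr2a was 0.085 higher in EB (95% interval -1.06 to 1.23), and in ARC it was -0.17 (95% interval -1.66 to 1.32). The EB effect on Htr2a in PVN was not shown to differ from that in NTS (limma adjusted p = 0.999 for NTS minus PVN) or from that in ARC (limma adjusted p = 0.973 for PVN minus ARC). Without ARC Oil 1, Htr2a in ARC had an EB minus Oil difference of -0.98 (unadjusted p = 0.0114, limma), just under a fold of 2.

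Htr3a was the only receptor whose EB and Oil arrays did not overlap in any region, and this was in NTS, where 11.2% of all genes did not overlap, beside 12.4% in PVN and 11.2% in ARC. There it averaged 8.34 ± 0.08 in EB and 7.80 ± 0.25 in Oil arrays (SD, n = 3 each). EB minus Oil was 0.54 (SE 0.15, unadjusted p = 0.0104, limma adjusted p = 0.934), a fold of 1.45. It stayed between 0.42 and 0.66 on leaving out each NTS array in turn. The call threshold on p was missed in the fit of all 18 arrays (unadjusted p = 0.0642) and without NTS EB 1 and NTS Oil 3, an alternative added after the data were seen (unadjusted p = 0.0739). The 10 dorsal vagal neuron genes also had higher EB means in NTS, none of them called, and their part in the Htr3a difference was not tested. EB minus Oil was -0.06 in PVN (95% interval -0.49 to 0.38) and 0.45 in ARC (95% interval -0.35 to 1.25), and the NTS effect minus the PVN effect was 0.59 (limma adjusted p = 0.999).

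Htr1a was 7.26, 7.94 and 7.22 in ARC EB arrays and 8.19, 9.08 and 7.73 in ARC Oil arrays. Of these, 1 EB array and all 3 Oil arrays were above background, and the groups overlapped. EB minus Oil was -0.87 (SE 0.36, unadjusted p = 0.0436, limma adjusted p = 0.852), under a fold of 2. The difference passed the call without ARC EB 2 (-1.10), the array with the highest midbrain list, or without ARC Oil 3 (-1.17). In PVN, Htr1a was 7.21, 7.50 and 9.21 in EB arrays and 8.52, 8.60 and 8.40 in Oil arrays. PVN EB 3 stood above all Oil arrays and the other EB arrays below them, and without PVN EB 3 the difference was -1.15 (unadjusted p = 0.000144, limma adjusted p = 0.147), against -0.53 with it.

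The highest Htr2c array, NTS EB 3, set the sign of the EB difference in that region. EB minus Oil was 0.38 (95% interval -0.79 to 1.55) in NTS with all arrays and -0.24 without NTS EB 3. In PVN, where Htr2c varied little, EB minus Oil was -0.13 (95% interval -0.42 to 0.15), and in ARC it was 0.30 (95% interval -0.38 to 0.99). For Htr1b the differences were -0.43 in NTS, 0.06 in PVN and -0.30 in ARC, and for Htr4 they were 0.01, 0.06 and 0.41, each with a 95% interval that held 0. Of the receptors at or under background, Htr1d had differences of 0.08 in NTS, -0.56 in PVN and 0.02 in ARC, and those of Htr5b, Htr6 and Htr7 lay between -0.17 and 0.22. Over the 10 receptors the median EB minus Oil difference was 0.05 in NTS, -0.10 in PVN and -0.01 in ARC, beside -0.01, 0.00 and 0.01 over all genes.

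The 4 serotonin receptor genes on the array outside the chosen 10 were Htr1f, Htr2b, Htr3b and Htr5a. None was called in any comparison. Htr5a, an inhibitory receptor, was the one above background on all 18 arrays. It ran from 7.81 to 8.54 in NTS, from 8.86 to 9.15 in PVN and from 8.47 to 9.44 in ARC. NTS was lower than PVN by 0.85 on the log2 scale (limma adjusted p = 0.000290) and lower than ARC by 0.89 (limma adjusted p = 0.000155), both under a fold of 2. With EB in ARC it was 0.55 higher (unadjusted p = 0.0380, limma adjusted p = 0.852).

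Of 12 genes of serotonin synthesis, transport and breakdown, 4 were called higher and 0 lower in NTS than in PVN, where 2.95% and 2.6% of all genes were. In NTS minus ARC 2 were called higher and 3 lower, where 2.98% and 4.15% of all genes were. In PVN minus ARC 0 were called higher and 5 lower, where 0.349% and 1.88% were. The EB comparisons called 0 of the 12 in each region.

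Tph2, the rate-limiting enzyme of serotonin synthesis in neurons, was 8.94, 6.49 and 7.98 in NTS EB arrays and 7.10, 6.88 and 8.91 in NTS Oil arrays. It ran from 4.66 to 5.02 in PVN and from 4.17 to 4.65 in ARC, under background on all 12 of those arrays, while 3 of 6 NTS arrays were above. The mean over all 6 NTS arrays was 1.24-fold above the mean of the PVN arrays' background medians and 1.22-fold above that of the ARC arrays. Measured means were 7.72 in NTS, 4.89 in PVN and 4.38 in ARC (limma adjusted p = 2.81e-05 for NTS minus PVN and 5.09e-06 for NTS minus ARC). As 3 of 6 NTS arrays alone were above background, these folds are not strict lower bounds. Tph2 was highest in NTS EB 1 and NTS Oil 3, which also had the highest means of 7 raphe neuron genes, Tph2 and Slc6a4 among them, at 7.09 and 7.27, against 6.43 to 6.65 in the other NTS arrays. Fev, which defines raphe neurons, was at or under 5.38 and below background in all NTS arrays.

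Slc6a4, the serotonin reuptake transporter, was called higher in NTS than in PVN (limma adjusted p = 0.00424) with both regions under background. Slc18a2, the vesicular transporter shared by all monoamine neurons, averaged 8.41 ± 0.35 in NTS, 7.07 ± 0.55 in PVN and 9.61 ± 1.14 in ARC (SD, n = 6 each). It was 1.34 higher in NTS than in PVN and lower in NTS than in ARC, with a difference of -1.195, on the log2 scale (limma adjusted p = 0.0129 and 0.0204). Slc29a4, a low-affinity monoamine transporter, was higher in NTS than in PVN by 1.45 and than in ARC by 1.15 (limma adjusted p = 0.000156 and 0.000768). Maob, a monoamine oxidase prominent in serotonin neurons and astrocytes, averaged 12.14 ± 0.45 in NTS, 12.66 ± 0.11 in PVN and 14.11 ± 0.55 in ARC (SD, n = 6 each). Every ARC array was above every other array for Maob, with a limma adjusted p of 1.03e-05 for NTS minus ARC and 0.000544 for PVN minus ARC. Ddc and Gch1, needed to make serotonin and dopamine, were lower in PVN than in ARC by 1.01 and 1.05 on the log2 scale (limma adjusted p = 0.0330 and 0.00196). Among PVN arrays Gch1 was above background in PVN Oil 3 alone (7.52 against 7.40), so the size of its difference as RNA is not known. Maoa, the related oxidase, was not called in any comparison.

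**Figure D5:**
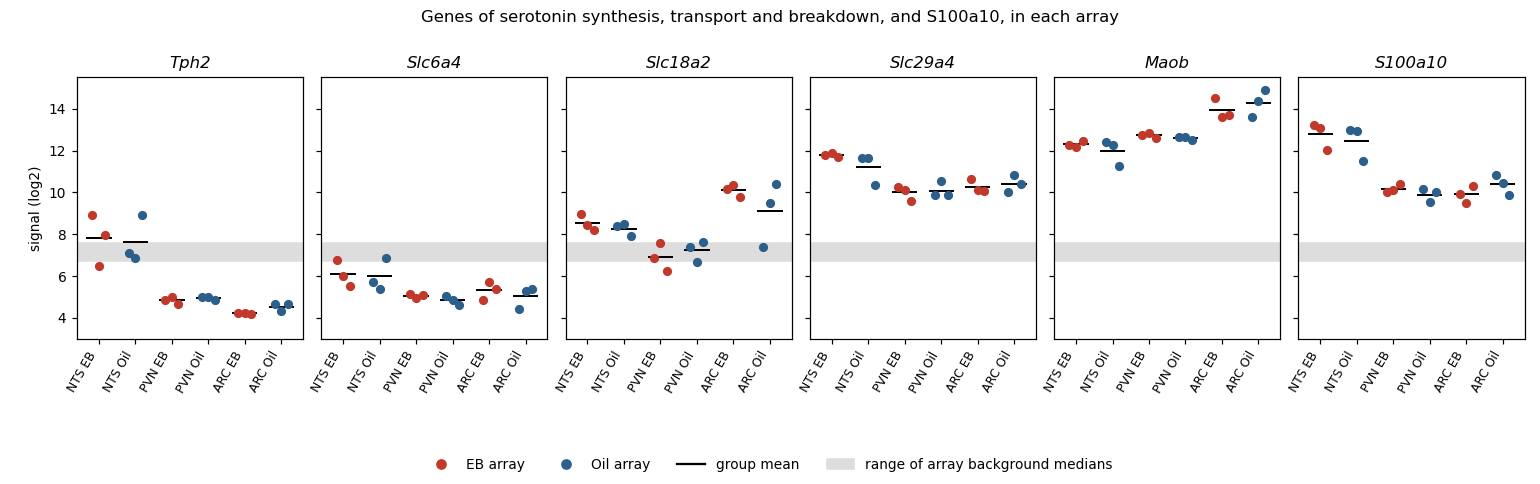
Signal (log2, y axis) of Tph2, Slc6a4, Slc18a2, Slc29a4, Maob and S100a10 in every array, by region and treatment along the x axis; red points are EB arrays, blue points Oil arrays, black bars group means and the grey band the range of array background medians. Tph2 lies between 6.49 and 8.94 in NTS arrays and at or under 5.02 in all PVN and ARC arrays.

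Of 28 measured G proteins and effectors through which these receptors signal, 0 were called higher and 1 lower in NTS than in PVN, and 0 higher and 2 lower in NTS than in ARC. Of all genes, 2.95% were called higher and 2.6% lower against PVN, and 2.98% higher and 4.15% lower against ARC. By adjusted p alone the counts in NTS were 0 higher and 12 lower against PVN, and 2 higher and 13 lower against ARC. Over all genes, 18.5% passed higher and 19% lower against PVN, and 18% higher and 26.3% lower against ARC. Kcnj6, a potassium channel opened by inhibitory G proteins, was lower in NTS by 1.15 against PVN and by 1.26 against ARC on the log2 scale (limma adjusted p = 9.85e-05 and 3.49e-05). Itpr1, the calcium release channel downstream of Gq, was lower in NTS than in ARC by 1.11 (limma adjusted p = 0.00952). The Gq subunit gene Gnaq was lower in NTS by 0.40 against PVN and by 0.46 against ARC, both under a fold of 2. Rgs4, which shortens signals of inhibitory and Gq proteins, was the one gene of this list called with EB, higher in PVN, where 0.151% of all genes were called higher. It averaged 9.55 ± 0.60 in EB and 8.53 ± 0.48 in Oil arrays there (SD, n = 3 each), a difference of 1.02 (unadjusted p = 0.0186, limma adjusted p = 0.722), with overlapping groups. Its lowest signals, 8.21 and 8.30, were in PVN Oil 1 and PVN Oil 3, the arrays with the raised midbrain list, against 9.08 in PVN Oil 2.

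Of 14 measured receptor partners and RNA editing enzymes, 1 was called in NTS minus PVN and 2 in NTS minus ARC, all higher in NTS. In these comparisons 2.95% and 2.98% of all genes were called higher. S100a10, which carries the 5-HT1B and 5-HT4 receptors to the cell surface, averaged 12.63 ± 0.69 in NTS, 10.04 ± 0.29 in PVN and 10.16 ± 0.47 in ARC (SD, n = 6 each). NTS was higher by 2.58 than PVN and by 2.47 than ARC (limma adjusted p = 6.05e-06 and 7.22e-06), with no overlap. Adarb1, an enzyme that edits Htr2c transcripts, averaged 13.79 ± 0.30 in NTS and 12.54 ± 0.50 in ARC (SD, n = 6 each), a difference of 1.26 (limma adjusted p = 0.000224). Probe sets of this array do not distinguish edited from unedited Htr2c RNA.

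Genes whose signals followed a receptor most closely were looked up for the 5 receptors above background throughout, as Pearson r over the 18 arrays and with no test. Htr2c was followed most closely by Pax3 (r = 0.93), Tfap2a (0.92) and Nxnl1 (0.91), each of them highest in NTS EB 3 and none above 6.84 on any array. With group means removed, Agpat2 (0.95), Sephs1 (0.93) and Mospd1 (0.92) came first for Htr2c, again with their highest signal in NTS EB 3. Htr3a was followed by Glra2, a glycine receptor subunit (0.94), Actl6b (0.93) and Supt5h (0.92). For Htr2a with group means removed the leading genes were Sorl1 (0.92), Gpld1 (0.88) and Lmo1 (0.88). The highest values for Htr4 were those of Tyr (0.87), Sugp2 (0.87) and Camk4 (0.86), and for Htr1b those of Prr19 (0.78), Meltf (0.78) and Nptx2 (0.73). Tyr ran from 3.72 to 4.99 and Prr19 from 5.34 to 5.96, under background on every array, and Meltf was under it on every array but ARC Oil 1. The arrays share regions and tissue make-up, and an r over them is a description.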

How the data were processed

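RNA from tissue punches was hybridised to Rat Clariom S Pico arrays. The authors deposited log2 signals per probe set, which the array service had background-adjusted, normalized and log2 transformed from the scanner files before the authors compared groups in the Transcriptome Analysis Console. Whether all 18 arrays were normalized together is not given in the sources used here. Gene medians per array were 7.74 to 7.95 in NTS, 7.79 to 7.83 in PVN and 7.95 to 8.00 in ARC. Of 24834 probe sets, 1646 controls were left out of the tests and 23188 were tested without a filter. Symbols came from the platform annotation, which gives 1 symbol to 15049 probe sets and none to 8139.

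The models were fitted in R 4.3.3 with limma 3.58.1 (lmFit and eBayes). EB minus Oil was fitted on the 6 arrays of a region. Region differences, and differences between EB effects, were fitted on all 18 arrays in 6 groups. Adjusted p-values are Benjamini-Hochberg over all 23188. Intervals are 95% and assume the moderated spread. The p-values measure the spread between these samples, and the 18 arrays were fitted as separate samples. The study's uterine weight test has the degrees of freedom of 3 rats per treatment, so punches of different regions would share rats, which the region tests do not model. The number of arrays limits the precision. Named genes were the 10 receptors, all members of the serotonin lists, up to 4 called members of a marker list, and the 3 genes most correlated with each receptor; Ttr and Fev were named after their values were seen. Members and lists were chosen with earlier results of these data known. The fit was tested on simulated data with known changes. Alternatives were quantile normalization, median centring, a background filter (3 arrays above background), a trended robust fit, a replicate block, EB or Oil arrays alone, adjusted p alone, and leaving out each array or the arrays that stood apart (ARC Oil 1, PVN Oil 1, PVN Oil 3, NTS Oil 3). For a probe set called across regions with 1 region above background on some arrays and the other on none, the fold is given against the other region's mean background median. It is not a strict lower bound.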

Additional observations from a re-analysis of the deposited data

Results flagged for a closer look

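Among the 27 genes checked in 3 regions of 6 arrays each, 7 had 1 array standing far from the other 5 of its region, where the gap to the nearest array exceeded the 95% critical value of Dixon's test. Chance alone does so in about 5% of groups, and 81 groups were checked. Of the 10 receptors, Htr2c was so marked in NTS EB 3, at 14.86 against 12.82 to 13.39 in the other NTS arrays, and NTS EB 3 was the array with the highest choroid plexus mean. Htr1f stood at 6.73 in NTS Oil 3, against 6.10 to 6.24. Adarb1 stood at 13.19 in NTS EB 3, against 13.86 to 14.03. In NTS Oil 3, Maob stood at 11.24, against 12.18 to 12.48, and Slc29a4 at 10.37, against 11.62 to 11.89. Rgs4 stood at 10.05 in ARC Oil 3, against 9.17 to 9.44, and Slc18a2 at 7.40 in ARC Oil 1, against 9.50 to 10.42. No receptor's EB difference was shown to differ between regions by limma, where 0 genes passed an adjusted p under 0.05 in each of the 3 comparisons.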

How the results depend on the processing

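Across settings other than leaving out 1 array, 495 of 535 receptor differences kept their direction and their side of the call, 5 lost a call, 11 gained one and 24 changed sign, all of these uncalled. The background filter, trended robust fit, replicate block, fit of all 18 arrays and adjusted p alone keep the same differences. In those settings the direction could not change, so the count of 495 is no measure of how stable directions are. Receptors called in PVN minus ARC numbered 1 with all arrays, 2 after median centring, 0 with the background filter, which does not test Htr1d, 0 with EB arrays only, 2 with Oil arrays only and 2 by adjusted p alone. In NTS minus ARC there were 2, then 1 with the filter, which does not test Htr5b, and 4 by adjusted p alone. In NTS minus PVN there were 1, then 3 with Oil arrays only and 4 by adjusted p alone. In PVN EB minus Oil there was 1, then 0 in the fit of all 18 arrays, 0 without the arrays that stood apart and 0 without PVN Oil 1 and PVN Oil 3 in a fit of the other 16. Both of these leave PVN Oil 2 as the 1 Oil array, assumed to vary like the other groups. Leaving out 1 array at a time gave 0 to 1 receptors for EB in ARC, 0 to 2 for EB in PVN, 1 to 2 in NTS minus PVN, 1 to 3 in NTS minus ARC and 1 to 3 in PVN minus ARC. The cause of these changes was not tested unless stated.

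Signs turned in uncalled differences. With quantile normalization these were Htr1d EB in ARC (-0.0036), Htr1a EB in NTS (-0.0035) and Htr4 EB in NTS (-0.035). With median centring they were Htr1a EB in NTS (-0.025), Htr4 EB in NTS (-0.024) and Htr6 PVN minus ARC (0.015). With EB arrays only they were Htr1a (0.042) and Htr7 (-0.042) in NTS minus ARC. With Oil arrays only they were Htr2a (-0.24), Htr5b (-0.10) and Htr7 (0.14) in NTS minus PVN and Htr7 PVN minus ARC (-0.046). Without the arrays that stood apart they were Htr1d EB in ARC (-0.16), Htr1d (0.088) and Htr7 (-0.048) EB in PVN, Htr1a (-0.011) and Htr2a (-0.29) EB in NTS, and the Htr2a EB effect in PVN minus ARC (0.62). In the added settings they were Htr2a NTS minus ARC without the 4 choroid plexus arrays (0.22), Htr1d (0.088) and Htr7 (-0.048) EB in PVN in the fit of 16 arrays, and Htr1d (-0.17), Htr2a (-0.49) and Htr5b (-0.062) EB in NTS without NTS EB 1 and NTS Oil 3. Leaving out 1 array turned 22 differences at least once. For EB in NTS the ranges were -0.14 to 0.18 (Htr1a), -0.25 to 0.31 (Htr1d), -0.29 to 0.58 (Htr2a), -0.24 to 0.78 (Htr2c), -0.19 to 0.24 (Htr4) and -0.25 to 0.011 (Htr6). For EB in PVN they were -0.12 to 0.22 (Htr1b), -0.17 to 0.086 (Htr3a), -0.21 to 0.21 (Htr4), -0.34 to 0.055 (Htr5b) and -0.088 to 0.33 (Htr7). For EB in ARC they were -0.58 to 0.092 (Htr1b), -0.16 to 0.27 (Htr1d), -0.98 to 0.44 (Htr2a) and -0.096 to 0.05 (Htr7). Between regions they were -0.31 to 0.025 (Htr1b) and -0.040 to 0.074 (Htr7) for NTS minus ARC, -0.031 to 0.17 (Htr5b) and -0.11 to 0.096 (Htr7) for NTS minus PVN, -0.071 to 0.14 (Htr7) for PVN minus ARC, and -0.36 to 1.06 (Htr2a) and -0.33 to 0.34 (Htr3a) for the EB effect in NTS minus ARC.

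Median centring moved every difference by 0.12 in NTS minus ARC and 0.16 in PVN minus ARC. Calls over all genes were then 907 higher and 740 lower, against 691 and 963 before, in NTS minus ARC, and 169 higher and 295 lower, against 81 and 435, in PVN minus ARC. For EB in NTS they were 11 and 11, against 11 and 7. Same-numbered EB and Oil arrays had correlations of deviations from -0.46 to 0.13, and 1 of 9 pairs exceeded 0.1. Between regions they ran from -0.11 to 0.42, where 8 of 18 pairs exceeded 0.1 and 6 were under 0. Pairs with different numbers were not computed, so these values cannot decide whether a number marks 1 rat. The array titles run in the order ARC, PVN, NTS within each number, but the labels name no rat. The main fits took no pairing. With the number as a replicate block 24, 97 and 85 genes were called for EB in NTS, PVN and ARC, against 18, 77 and 111, and the receptors called stayed 0, 1 (Htr2a) and 0. Region calls with the block were also unaltered, at 1, 2 and 1 receptors. All-gene calls for EB moved by over 1.5 times in ARC (195 without the arrays that stood apart, 63 to 252 leaving out 1 array), in PVN (168 without the arrays that stood apart, 151 in the fit of 16 arrays, 53 to 211 leaving out 1) and in NTS (29 in the fit of all arrays, 34 without NTS Oil 3, 41 without NTS EB 1 and NTS Oil 3, 27 to 95 leaving out 1). With the filter 68 of 12701 tested were called in ARC and 10 of 12562 in NTS. These counts cannot be set directly against 111 and 18 of 23188. PVN minus ARC gave 227 calls with EB arrays only, against 516. Low signal limits Htr1d, Htr5b, Htr6 and Htr7, whose differences and fold thresholds describe probe signal and not the size of an RNA change. Averaging all probe sets of a gene was not run because each receptor has 1.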
